A study of Homo sapiens with 20 samples.

Results

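Transcript levels of KM-H2 and L428, established cell lines of classical Hodgkin lymphoma (cHL), were compared in the absence of 4-hydroxytamoxifen (4-OHT). The comparison rests on 4 of the 20 arrays of the series: the 2 arrays titled as controls of KM-H2-FOXO1(3A)ER and the 2 titled as controls of L428-FOXO1(3A)ER. The study as a whole measured 5 cHL lines that carry FOXO1(3A)ER, in which an active mutant of the transcription factor FOXO1 is joined to the hormone-binding part of the oestrogen receptor, so that 4-OHT switches the protein on. KM-H2 cells and L428 cells here both expressed this fusion stably and both received ethanol as vehicle for 24 h before RNA was taken, so neither group is the parental line. The treatment text of the labels names these lines with a different fusion, KLF4ER, while titles, sources and growth text name FOXO1(3A)ER, which was followed here. Whether the fusion-carrying cells of a line were 1 clone or a pool is not given in the sources used here. According to that text the work was done 2 times. No label ties the 2 arrays of a line to independent cultures, so the p-values below measure the spread between arrays, which may be technical.

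Hodgkin and Reed-Sternberg cells, the tumour cells of cHL, descend from germinal centre B cells but have shut down much of the B cell programme. They are known for CD30 (gene TNFRSF8) on the surface, for constant NF-kB and JAK-STAT signalling, for chemokines that draw T cells towards them, and for lesions of genes that restrain these pathways or present antigen. Cell lines of the disease each carry their own set of chromosome changes, and the comparison asks what separates KM-H2 from L428 before FOXO1 is activated. In bulk RNA, fewer cells expressing a gene and less of its RNA per cell cannot be told apart.

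Values are log2 signals from the robust multichip average (RMA), in which a difference of 1 unit is a 2-fold ratio. Differences are KM-H2 minus L428, with the standard error of limma's fit after ±, for n = 2 arrays per line, and adjusted p-values are limma's with Benjamini-Hochberg adjustment over the 13401 genes tested. A gene passed when its adjusted p was below 0.05. A gene was tested when at least 2 of the 4 vehicle arrays reached 5 log2 units, and genes under this floor are accounted for beside each list. The floor admits genes that are expressed in 1 line and low in the other, which are bound to differ, so counts over tested members describe those members alone. A fold is the ratio of RMA signals, and where a line is under the floor its signal may be background. Signals of different genes are not compared, because a probe set's brightness depends on its probes.

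Of 24 Hodgkin cell markers, 23 had a probe set of their own and all 23 were tested, which needs a level at the floor in only 2 of the 4 vehicle arrays. TNFRSF8 read 8.93 and 8.84 in KM-H2, against 10.01 and 9.98 in L428, and IRF4, a lymphoid transcription factor highly produced by these cells, read 11.58 and 11.69 in KM-H2, against 11.42 and 11.47 in L428, so both lay above the floor in all 4 arrays. CD274, a ligand that restrains T cells, lay under it in the KM-H2 arrays, at 4.77 and 4.64 in KM-H2, against 5.81 and 5.98 in L428. Markers of other cell types were read in the same arrays. Over all genes tested, 31.7% were higher in KM-H2 and 30.7% lower, and the counts below are to be read against these shares. Among 18 T cell markers, 10 lay under the floor in both lines, including the CD3 chains CD3D, CD3E and CD3G, and their log2 levels summed to 91.31 and 91.17 in the KM-H2 arrays, against 83.56 and 85.03 in the L428 arrays. Of the 8 tested, 4 were higher in KM-H2 and none was lower. CD7, 1 of these 4 (0.27), lost its call without the first KM-H2 array (0.24) or without the first L428 array (0.22). CD4 read 9.20 and 9.40 in KM-H2, against 4.74 and 5.02 in L428, and the kinase gene ZAP70 read 7.22 and 7.01 in KM-H2, against 5.51 and 5.24 in L428, so both were higher in each KM-H2 array than in each L428 array. The 16 measured myeloid markers summed to 79.96 and 79.25 in KM-H2, against 78.14 and 79.02 in L428, with 8 of them, LYZ and MPO among them, under the floor. Of the 8 tested, 3 were higher in KM-H2 and 2 were lower. CD68, a lysosomal protein of macrophages, read 6.01 and 6.14 in KM-H2, against 8.52 and 8.34 in L428 (-2.36 ± 0.12). The integrin gene ITGAM read 7.06 and 7.09 in KM-H2, against 4.78 and 5.03 in L428 (2.17 ± 0.12). CD14 (0.76) and CST3 (0.64) were also higher, and ITGAX (-0.62) was also lower. The 7 measured natural killer cell markers summed to 30.53 and 30.11 in KM-H2, against 29.90 and 30.34 in L428, and the 6 erythroid and megakaryocyte markers to 30.22 and 30.56 in KM-H2, against 29.17 and 29.45 in L428. In each of these lists 3 were tested and 1 was higher, PRF1 (0.46) among the natural killer cell markers and GP9 (0.34) among the others. Neither passed without the second KM-H2 array (PRF1 0.38, adjusted p = 0.0721; GP9 0.30, adjusted p = 0.0788) or without the second L428 array (PRF1 0.39, adjusted p = 0.0546; GP9 0.29, adjusted p = 0.0695). Stromal and epithelial markers summed to 102.07 and 100.8 over 17 genes in KM-H2, against 91.84 and 94.11 in L428, with 6 of them under the floor. Of the 11 tested, 4 were higher in KM-H2 and 1 was lower. SPARC, a matrix protein of stromal cells, read 9.70 and 9.60 in KM-H2, against 4.47 and 4.68 in L428. PDGFRA, a growth factor receptor, read 8.46 and 8.52 in KM-H2, against 5.65 and 6.10 in L428. The collagen gene COL1A1 (0.93) and the keratin gene KRT18 (0.30) were also higher, and the keratin gene KRT8 (-0.88) was lower. KRT18 passed in 1 of the 4 fits that left out an array (0.13 without the first L428 array, adjusted p = 0.349), and KRT8 did not pass without the second KM-H2 array (-0.73, adjusted p = 0.0741) or without the second L428 array (-0.46, adjusted p = 0.153). DCN, LUM and EPCAM were among the 6 under the floor. Whether cells of these other types contributed to any difference below was not tested. CD3D, CD3E, CD3G, LYZ, MPO, DCN, LUM and EPCAM are named here as defining markers, after their values were seen.

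The lines differed at most genes. Of 13401 genes, 8373 passed, 62.5% of those tested: 4254 (31.7%) were higher in KM-H2 and 4119 (30.7%) were lower. A difference of at least 1 log2 unit was reached by 1211 of the higher genes, 9.04% of all tested, and by 1182 of the lower ones, 8.82%. The arrays of the lines did not overlap at 10750 genes (80.2%), so a gene that passes or does not overlap is ordinary in this comparison, and each count below is to be read against these shares. At 63 genes KM-H2 was higher by at least 4 log2 units, 16-fold, and at 65 genes it was lower by as much. In both directions some genes were under the floor in one line only, with 48 genes under 5 in both KM-H2 arrays and at 8 or more in both L428 arrays, and 40 genes the other way round. Arrays of one line were close, with Pearson correlations over genes of 0.997 between the KM-H2 arrays and 0.995 between the L428 arrays, against 0.831 to 0.833 across lines, which are descriptions over genes that are not independent.

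**Figure D1:**
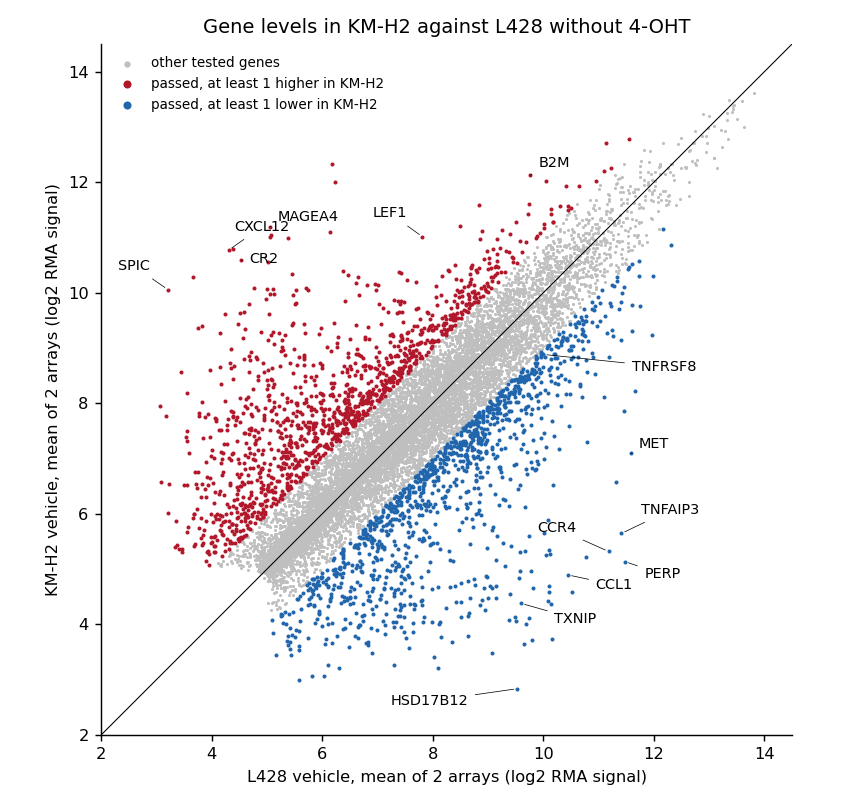
Mean log2 RMA signal of every tested gene in the 2 KM-H2 vehicle arrays (vertical axis) against the 2 L428 vehicle arrays (horizontal axis), with the line of equal levels. The 1211 genes that passed and were at least 1 unit higher in KM-H2 are red, the 1182 lower by as much are blue, and labelled genes such as SPIC and CXCL12 above the line and TNFAIP3 and HSD17B12 below it lie several units from it.

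The genes furthest above L428 in KM-H2 came from many pathways. SPIC, an ETS-family transcription factor, read 10.00 and 10.11 in KM-H2, against 3.25 and 3.16 in L428, a 115-fold ratio (6.85 ± 0.17, adjusted p = 4.07e-13). CXCL12, the chemokine that binds CXCR4, read 10.75 and 10.79 in KM-H2, against 4.31 and 4.30 in L428 (88.3-fold). CR2, the complement receptor of mature B cells, read 10.62 and 10.54 in KM-H2, against 4.53 and 4.53 in L428 (66.3-fold). All 3 were bright in both KM-H2 arrays and under the floor in both L428 arrays. The others among the 15 largest were PLS3, an actin-bundling protein (6.63), the cancer-testis genes SSX1 (6.41) and MAGEA4 (6.14), the reductase gene DHRS2 (6.17), the histone genes H1-5 (5.98) and H3C11 (5.95), the cytochrome gene CYP1B1 (5.77), the plasminogen activator PLAT (5.62), the protease MMP12 (5.61), CYB5A, a cytochrome that donates electrons to membrane enzymes (5.56), TCL1A, a co-activator of AKT in B cells (5.54), and the sugar enzyme GALM (5.38). H1-5, H3C11 and MAGEA4 have near-identical relatives, so their signals may be shared among family members.

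Genes furthest below L428 included an enzyme, a chemokine with a chemokine receptor, and the NF-kB inhibitor TNFAIP3. HSD17B12, an enzyme of fatty acid elongation, read 2.88 and 2.79 in KM-H2, against 9.47 and 9.59 in L428, a 103-fold ratio (-6.69 ± 0.10, adjusted p = 3.51e-15). PERP, a membrane protein of cell junctions, read 5.35 and 4.92 in KM-H2, against 11.53 and 11.42 in L428 (81.2-fold). CCR4, the receptor of CCL17, read 5.32 and 5.31 in KM-H2, against 11.14 and 11.22 in L428 (58.2-fold). HSD17B12 was under the floor in both KM-H2 arrays, PERP and CCR4 were within 1 unit of it, and no KM-H2 array reached any L428 array. The remaining members of this group of 15 were FAM9C (-6.42), CFI, a protease that inactivates complement (-6.08), the Wnt receptor FZD6 (-6.0), HEBP2, a haem-binding protein (-5.92), PIK3CG, a phosphoinositide kinase of leukocytes (-5.78), TNFAIP3 (-5.77), SH2D1B, an adaptor of SLAM-family receptors (-5.70), the cadherin CDH8 (-5.65), THEMIS, a signalling protein of developing T cells (-5.63), the mitochondrial carrier SLC25A21 (-5.59), the chemokine CCL1 (-5.55) and PHGDH, the first enzyme of serine synthesis (-5.55). The genes on either side of HSD17B12 on chromosome 11, TTC17 and ALKBH3, chosen after their values were seen, were higher in KM-H2 by 0.60 and 0.62 log2 units.

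The longest runs of neighbouring genes that differed in one direction by at least 1 log2 unit lay in imprinted clusters. In these, many genes are normally expressed from the copy of one parent, and which copy was expressed here was not measured. On chromosome 14, 8 consecutive tested genes were higher in KM-H2: DLK1, a Notch-like surface protein, MEG3, a long non-coding RNA, the miRNA genes MIR127 and MIR382, and 4 small nucleolar RNA (snoRNA) genes. DLK1 read 10.44 and 10.36 in KM-H2, against 6.57 and 6.19 in L428 (4.02 ± 0.12, adjusted p = 1.68e-12), MEG3 read 7.07 and 7.17 in KM-H2, against 5.45 and 5.09 in L428 (1.85 ± 0.13, adjusted p = 1.48e-08). SNORD113-4 read 7.67 and 8.24 in KM-H2, against 3.04 and 3.09 in L428 (4.89 ± 0.16). For each of these 3 the lower KM-H2 array lay above the higher L428 array, and SNORD113-4 was under the floor in L428. SNORD113-3 differed by 2.80, SNORD114-2 by 2.52 and SNORD114-3 by 2.57. Copies of SNORD113 and SNORD114 are near-identical and their probes may read each other.

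Of 164 miRNA genes measured, 49 were tested, and 9 were higher and 4 lower in KM-H2, against 31.7% and 30.7% of all genes tested. A difference of at least 1 log2 unit was reached by 4 of them, 3 higher and 1 lower. The mature sequences of these 4, from RefSeq (GRCh38.p14), are shown because the seed, bases 2 to 8 and here in capitals, selects a miRNA's targets. The array reads RNA of the gene, that is the hairpin or its host transcript, and not the mature miRNA.
hsa-miR-127-5p: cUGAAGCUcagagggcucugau
hsa-miR-127-3p: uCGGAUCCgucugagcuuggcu
hsa-miR-154-5p: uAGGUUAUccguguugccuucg
hsa-miR-154-3p: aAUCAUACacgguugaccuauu
hsa-miR-382-5p: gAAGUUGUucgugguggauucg
hsa-miR-382-3p: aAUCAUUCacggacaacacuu
hsa-miR-21-5p: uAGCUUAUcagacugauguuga
The 7 sequences have 7 different seeds. The seeds of hsa-miR-154-3p and hsa-miR-21-5p are each shared by 2 mature miRNAs of the table, and the other 5 seeds belong to 1. The first 6 sequences lie on the plus strand of chromosome 14, from chr14:100883001-100883022 (hsa-miR-127-5p) to chr14:101059805-101059826 (hsa-miR-154-3p), and hsa-miR-21-5p lies at chr17:59841273-59841294, also on the plus strand.

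MIR127 read 6.0 and 6.38 in KM-H2, against 4.81 and 4.73 in L428 (1.42 ± 0.13, adjusted p = 2.89e-07). MIR382 read 5.32 and 6.04 in KM-H2, against 3.50 and 3.59 in L428 (2.13 ± 0.18, adjusted p = 1.17e-07). MIR154 read 6.34 and 7.05 in KM-H2, against 4.06 and 4.30 in L428 (2.52 ± 0.18, adjusted p = 1.97e-08). These 3 genes of the chromosome 14 cluster were above the floor in KM-H2 only, and their KM-H2 arrays differed from each other by more than the L428 arrays did. A pair of further miRNA genes of the cluster were higher by less than 1 unit, MIR134 by 0.47 and MIR323B by 0.53. DIO3OS at the far end of the cluster read 6.90 and 6.59 in KM-H2, against 6.66 and 6.67 in L428, and its arrays overlapped. In the other direction, MIR21, widely known as a miRNA of tumours, read 3.90 and 4.08 in KM-H2, against 6.79 and 6.56 in L428 (-2.69 ± 0.17, adjusted p = 3.35e-09), with both KM-H2 arrays under the floor. MIR154, MIR21, MIR134, MIR323B and DIO3OS were chosen after their values were seen.

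The imprinted snoRNA cluster of chromosome 15 ran the other way. Its 8 consecutive genes, 7 copies of SNORD116 and UBE3A, a ubiquitin ligase whose imprinting is known from neurons, were all lower in KM-H2. SNORD116-21 read 4.07 and 4.75 in KM-H2, against 8.44 and 8.40 in L428 (-4.01 ± 0.16, adjusted p = 3.64e-11), SNORD116-14 read 5.12 and 5.64 in KM-H2, against 8.95 and 9.02 in L428 (-3.61 ± 0.15). UBE3A read 7.97 and 8.09 in KM-H2, against 9.07 and 9.0 in L428 (-1.0 ± 0.067, adjusted p = 8.97e-09). At UBE3A both lines stayed above the floor, and at SNORD116-21 only L428 did. The other 5 tested copies differed by -1.75 to -3.05. Of 20 measured copies of SNORD116, 13 lay under the floor, as did all 20 measured copies of SNORD115, the adjoining snoRNA family, and copies of one family may read each other's RNA. The chromosome 15 result stands beside a general shift: of 108 other snoRNA genes tested, 13 were higher and 65 lower in KM-H2, 24 of them by at least 1 log2 unit and none higher by as much, with a median of -0.57 against 0.02 over all genes tested. What recovery of small RNA contributed to that shift was not tested. These snoRNA counts were made after the values were seen.

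**Figure D2:**
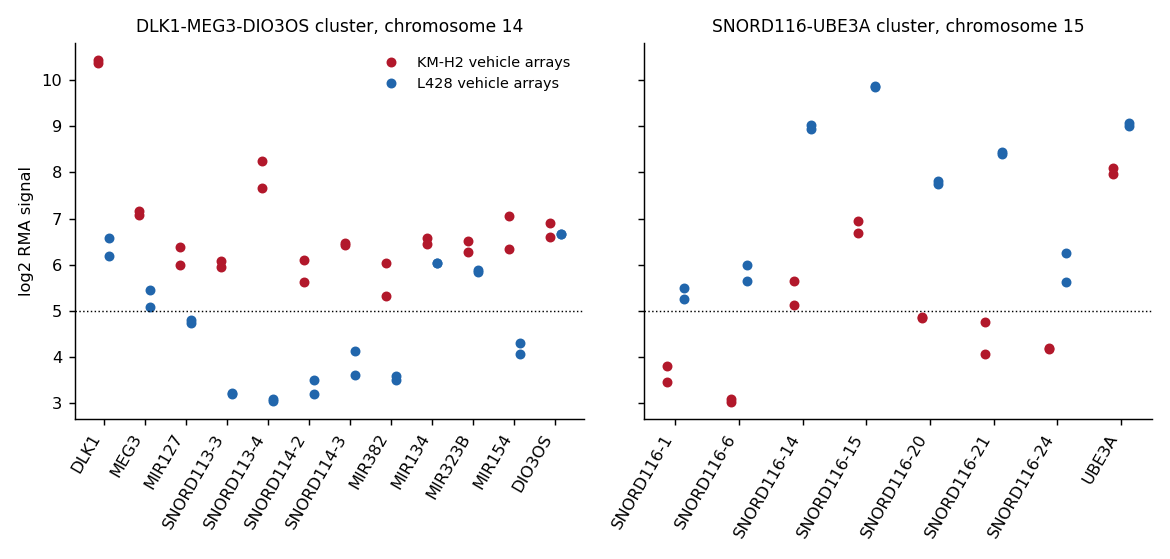
Log2 RMA signal of genes of the DLK1-MEG3-DIO3OS cluster (left) and of the SNORD116-UBE3A cluster (right), each point 1 vehicle array, KM-H2 red and left of L428 in blue. The dotted line is the floor of 5. KM-H2 points lie above L428 points on the left up to MIR154, those of DIO3OS overlap, and all KM-H2 points lie below their L428 points on the right.

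The markers of Hodgkin cells were split between the lines. Of 23 tested, 7 were higher in KM-H2, 13 were lower and 3 did not pass, with a median difference of -0.42, and 10 of the 13 were lower by at least 1 log2 unit. TRAF1, a signalling adaptor induced by NF-kB, read 7.19 and 7.21 in KM-H2, against 10.01 and 10.09 in L428 (-2.85 ± 0.073, 7.22-fold, adjusted p = 3.98e-13). CD86, a co-stimulatory ligand, read 7.57 and 7.36 in KM-H2, against 9.98 and 10.04 in L428 (-2.54 ± 0.078). FSCN1, the actin-bundling protein used to stain Reed-Sternberg cells, read 9.78 and 9.75 in KM-H2, against 11.67 and 11.84 in L428 (-1.99 ± 0.093). For these 3 the KM-H2 arrays lay about 2 units or more under the L428 arrays. The AP-1 factor JUN (-2.02), its partner BATF3 (-1.53) and TNFRSF8 (-1.11) were lower as well. Higher in KM-H2 by at least 1 log2 unit were 3 markers. LMNA, a protein of the nuclear lamina, averaged 9.32 in KM-H2 and 7.63 in L428 (1.70 ± 0.076). ID2, which blocks B cell transcription factors, averaged 10.11 in KM-H2 and 8.56 in L428 (1.55 ± 0.076). PDCD1LG2, a ligand of the checkpoint receptor PDCD1, averaged 7.38 in KM-H2 and 6.22 in L428 (1.17 ± 0.092). IRF4 differed by 0.18 ± 0.065 (adjusted p = 0.0246). This call ended without KM-H2 replicate 2 (adjusted p = 0.206), without L428 replicate 1 (adjusted p = 0.135) and under 2 other settings (adjusted p = 0.0763 and 0.0998). ID2, PDCD1LG2 and, in the plot of genes by array, CD40 were chosen after their values were seen.

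B cell genes differed mostly towards KM-H2. Of 28 listed, 26 had a probe set of their own, 5 lay under the floor in both lines and 21 were tested: 12 were higher, 1 was lower and 8 did not pass, with a median of 0.39. BLNK, an adaptor of the B cell receptor, read 7.87 and 7.78 in KM-H2, against 4.54 and 4.60 in L428 (3.26 ± 0.10, adjusted p = 3.78e-12). FCRLA, an intracellular Fc receptor-like protein of B cells, read 7.73 and 7.90 in KM-H2, against 4.76 and 4.65 in L428 (3.11 ± 0.11). CD24 (2.05), CD22 (1.47) and CD37 (1.41), surface proteins of B cells, were also higher, and with CR2 these made up the 6 that were higher by at least 1 log2 unit. PAX5, the factor that maintains B cell identity, read 6.81 and 6.67 in KM-H2, against 6.17 and 6.16 in L428, a smaller difference of 0.58 ± 0.096 (adjusted p = 0.000103). FCER2, the low-affinity IgE receptor, was the 1 gene that was lower (-0.70). MS4A1, which encodes CD20, lay under the floor in both lines at 3.71 and 3.49 in KM-H2, against 3.54 and 3.85 in L428, as did POU2AF1, BTK, BANK1 and FCRL5 and none of these was tested, and CD79A, CD79B and CD72 were tested and did not pass. With no floor the median over 26 members was 0.13, and with a floor of 6 it was 0.92. POU2AF1, BTK, BANK1, FCRL5, CD79A, CD79B and CD72 were chosen after their values were seen.

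Of 11 plasma cell genes tested, 7 were lower in KM-H2 and 2 were higher, with a median of -0.50, and 6 of 17 measured lay under the floor. PRDM1, the repressor that drives plasma cell differentiation, read 6.52 and 6.79 in KM-H2, against 8.87 and 8.90 in L428 (-2.23 ± 0.089, adjusted p = 3.57e-11). XBP1, which expands the secretory apparatus, read 9.03 and 9.03 in KM-H2, against 10.48 and 10.50 in L428 (-1.46 ± 0.056), and ELL2, an elongation factor used for secreted immunoglobulin, differed by -1.55. Both KM-H2 arrays were lower than both L428 arrays for all 3. BCL6, the repressor of germinal centre cells that counteracts PRDM1, read 7.63 and 7.69 in KM-H2, against 7.31 and 7.25 in L428 (0.38 ± 0.075, adjusted p = 0.000418). In the germinal centre list, MYBL1 was lower (-2.81) and FOXP1, a B cell factor not specific to that stage, was higher (1.47). Of 13 measured genes of that list, 6 were under the floor. Among genes of B cell receptor signalling, 20 tested, 7 were higher and 8 lower. The kinase gene PRKCB averaged 4.74 in KM-H2 and 8.51 in L428 (-3.76 ± 0.11) and the exchange factor gene RASGRP3 3.68 in KM-H2 and 8.35 in L428 (-4.67 ± 0.14), so these 2 genes and BLNK differed in opposite directions. With no floor the plasma cell median was -0.12.

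**Figure D3:**
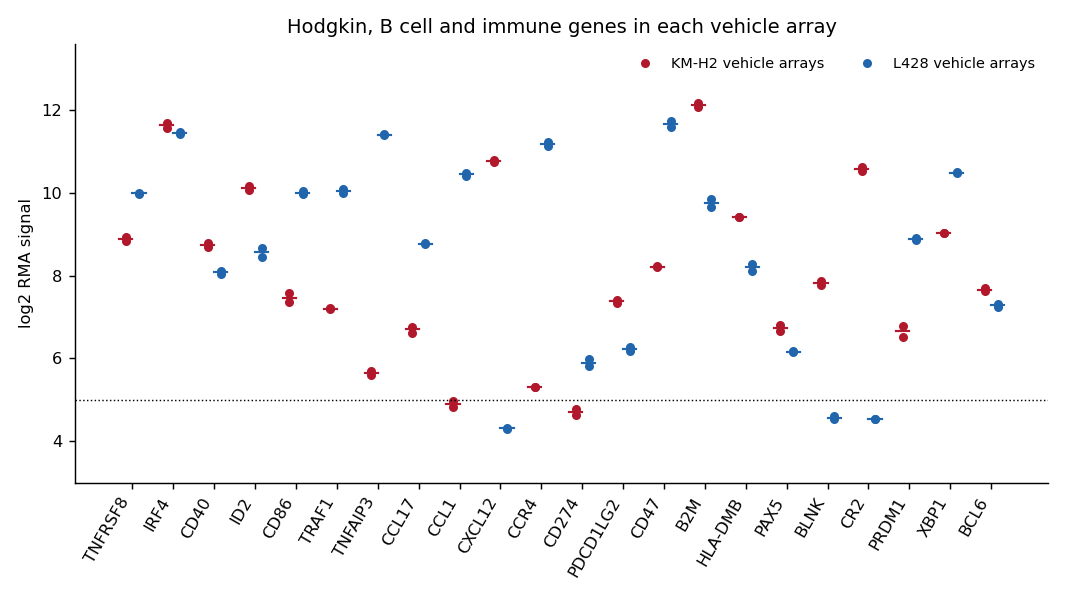
Log2 RMA signal of genes of Hodgkin cell identity, chemokines, checkpoint ligands, antigen presentation and B cell or plasma cell stages, each point 1 vehicle array with a bar at the mean, KM-H2 red and left of L428 in blue. The dotted line is the floor of 5. The arrays of each line lie close together, the lines are far apart at TNFAIP3, CCL1, CXCL12, CCR4 and CR2, and they are near each other at IRF4 and BCL6.

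Most tested genes of antigen presentation were higher in KM-H2. B2M, the invariant chain of MHC class I molecules, read 12.08 and 12.17 in KM-H2, against 9.66 and 9.86 in L428 (2.37 ± 0.083, 5.15-fold, adjusted p = 9.35e-12). ERAP2, a peptidase that trims peptides for class I, read 9.50 and 9.42 in KM-H2, against 6.06 and 6.36 in L428 (3.25 ± 0.095). Of 17 class I genes listed, 11 had a probe set of their own and all 11 were tested. Of these, 8 were higher, 2 lower and 1 did not pass, with a median of 0.49. The transporter genes TAP1 (0.53) and TAP2 (0.58) were among those higher by less than 1 unit. Of 16 class II genes listed, 13 had a probe set of their own, 1 lay under the floor and 12 were tested. Of these 12, 9 were higher and 1 lower, with a median of 0.60. HLA-DMB, which loads class II molecules, read 9.41 and 9.42 in KM-H2, against 8.12 and 8.29 in L428 (1.21 ± 0.083), HLA-DQA1 differed by 1.32 ± 0.11 and HLA-DOB by 1.19 ± 0.16. CIITA, the master regulator of class II genes, read 7.17 and 7.11 in KM-H2, against 6.70 and 6.87 in L428, with a difference of 0.36 ± 0.095 (adjusted p = 0.00448). Probe sets of HLA genes can read relatives and alleles unequally, so part of a line difference in them may lie in sequence, which was not tested.

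Different chemokines were bright in the lines. Of 20 measured, 10 lay under the floor in both lines, and of the 10 tested 1 was higher, 5 were lower and 4 did not pass. CXCL12 was the 1 that was higher. CCL1, a ligand of CCR8, read 4.96 and 4.82 in KM-H2, against 10.41 and 10.48 in L428 (-5.55 ± 0.099, 47.0-fold, adjusted p = 1.52e-14). CCL17, the T cell attractant known from Hodgkin cells, read 6.77 and 6.62 in KM-H2, against 8.78 and 8.77 in L428 (-2.08 ± 0.081, adjusted p = 2.95e-11), and CCL5 differed by -1.19 ± 0.072. KM-H2 arrays were lower than L428 arrays in each case, and CCL1 was under the floor in KM-H2. CCR4, the receptor for CCL17, was thus higher in L428, which also had the higher CCL17 signal. Of 10 tested receptors of trafficking, 4 were higher and 5 lower: CCR7, a lymph node homing receptor, averaged 8.79 in KM-H2 and 10.78 in L428 (-1.99 ± 0.062), GPR183, an oxysterol receptor, 4.03 in KM-H2 and 7.27 in L428 (-3.24 ± 0.13), CXCR5, the follicular homing receptor, 5.98 in KM-H2 and 4.15 in L428 (1.83 ± 0.12), and S1PR1, the egress receptor, 7.11 in KM-H2 and 5.33 in L428 (1.78 ± 0.10). The median of the chemokines was -0.26 and ranged to -0.09 with no floor and to -0.82 with a floor of 6.

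Cytokine receptor chains differed in both directions. Of 24 receptor chains tested, 11 were higher and 7 lower, against 31.7% and 30.7% of all genes tested. IL5RA, the interleukin-5 receptor chain, read 4.32 and 4.10 in KM-H2, against 8.55 and 8.76 in L428 (-4.45 ± 0.11, adjusted p = 3.98e-13). IL3RA, the corresponding chain for interleukin-3, read 4.63 and 4.74 in KM-H2, against 8.81 and 9.26 in L428 (-4.34 ± 0.13). Both were under the floor in KM-H2. CSF2RB, the signalling chain that these receptors share, read 7.76 and 7.57 in KM-H2, against 5.63 and 4.73 in L428 (2.48 ± 0.21), higher in both KM-H2 arrays, although the L428 arrays differed from each other by almost 1 unit. IFNGR2 (2.25) and IL10RA (2.27), chains of the interferon-gamma and interleukin-10 receptors, were higher in KM-H2, and CRLF2 (-2.08), a receptor chain for the cytokine TSLP, was lower.

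In the JAK-STAT pathway, 19 genes were tested, none lay under the floor, 7 were higher in KM-H2 and 10 lower, 4 and 7 of them by at least 1 log2 unit. The kinases JAK3 and JAK1 were higher: JAK3 read 8.64 and 8.72 in KM-H2, against 6.54 and 6.26 in L428 (2.28 ± 0.10). JAK1 read 10.63 and 10.61 in KM-H2, against 9.05 and 8.99 in L428 (1.60 ± 0.051). The transcription factors downstream were lower: STAT3 read 9.33 and 9.34 in KM-H2, against 11.22 and 11.25 in L428 (-1.90 ± 0.049, adjusted p = 4.33e-13). STAT5A read 9.26 and 9.22 in KM-H2, against 10.70 and 10.76 in L428 (-1.49 ± 0.061). No array of one line reached the other at these 4 genes. Among feedback inhibitors and targets, SOCS2 averaged 8.94 in KM-H2 and 6.15 in L428 (2.79 ± 0.14) and the kinase PIM2 9.64 in KM-H2 and 7.91 in L428 (1.73 ± 0.069), both higher in KM-H2. SOCS1, an inhibitor of JAK kinases that is often mutated in cHL, differed by only -0.22 ± 0.078 (adjusted p = 0.0257), and the call ended without KM-H2 replicate 2 or L428 replicate 2 and under 2 other settings, with adjusted p from 0.0663 to 0.174.

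The NF-kB pathway held one of the widest gaps of the comparison. TNFAIP3, a ubiquitin-editing enzyme that shuts NF-kB signalling off, read 5.69 and 5.60 in KM-H2, against 11.41 and 11.42 in L428 (-5.77 ± 0.066, 54.5-fold, adjusted p = 3.56e-16). CYLD, a deubiquitinase with a similar role, read 4.82 and 5.51 in KM-H2, against 8.26 and 8.36 in L428 (-3.14 ± 0.16, adjusted p = 4.74e-10). NFKBIA, which encodes the inhibitor IkB-alpha, differed by -0.36 ± 0.058 and was bright in both. Of these 3 inhibitors, TNFAIP3 and CYLD were lower by more than 3 units in KM-H2 and NFKBIA by less than 1. Other inhibitors of the pathway went both ways: TRAF3 (0.94) and TNIP2 (0.73) were higher and TNIP1 (-0.63) was lower. TRAF3, TNIP2 and TNIP1 were chosen after their values were seen. The other large differences were TRAF1 and MAP3K14, the kinase of the alternative pathway (-1.16), both lower, and MALT1, a protease of the antigen receptor branch (1.55), higher. Over the 24 genes tested, with none under the floor, 11 were higher and 10 lower, and the median was -0.11, or -0.055 without L428 replicate 2.

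Several neighbours of TNFAIP3 on chromosome 6 were lower in KM-H2 too. Next to it, PERP differed by -6.34 log2 units and HEBP2, at 4.60 and 4.57 in KM-H2, against 10.56 and 10.46 in L428, by -5.92. In the order of the RefSeq gene table, BCLAF1 (-1.50), MAP3K5 (-2.18), PEX7 (-2.23) and IFNGR1 (-1.54) before TNFAIP3 were lower, and so were CCDC28A (-2.17), ABRACL (-1.68) and HECA (-0.57) after it. TNFAIP3, PERP and HEBP2, which adjoin each other, were the 3 with differences above 5 units. MAP7 (0.59) and NHSL1 (0.59), which lie among these genes, were higher in KM-H2, and SLC35D3 did not pass (0.24). These neighbours other than PERP and HEBP2 were chosen after their values were seen. DNA copy number was not measured.

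Most interferon-induced genes that passed were lower in KM-H2. Of 30 listed, 28 had a probe set of their own, 4 lay under the floor and 24 were tested: 4 were higher, 15 lower and 5 did not pass, with a median of -0.64, and 9 of the 15 were lower by at least 1 log2 unit. HERC5, a ligase for the modifier ISG15, read 4.37 and 3.93 in KM-H2, against 7.52 and 7.28 in L428 (-3.25 ± 0.15, adjusted p = 2.31e-10). SAMD9L, a growth inhibitor, read 4.69 and 4.80 in KM-H2, against 7.61 and 7.65 in L428 (-2.88 ± 0.096). IFIT3, an antiviral protein, read 4.63 and 4.86 in KM-H2, against 6.95 and 7.33 in L428 (-2.39 ± 0.14). KM-H2 was under the floor at these 3 genes in both arrays. IFI6 averaged 6.60 in KM-H2 and 8.78 in L428 (-2.18 ± 0.12) and IFI44L 3.45 in KM-H2 and 5.44 in L428 (-1.99 ± 0.13). OAS1, a sensor of double-stranded RNA, was the exception of this size, at 8.29 and 8.27 in KM-H2, against 6.23 and 6.12 in L428 (2.10 ± 0.096, adjusted p = 1.37e-10). With a floor of 6 the median of the list was -0.42.

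Genes of this list are classically driven through the interferon-stimulated response element (ISRE). Promoters of HERC5, IFIT3 and IFI6 from RefSeq (GRCh38.p14) are shown because they belong to the interferon genes with large differences and carry the pattern GAAANNGAAA, searched on both strands and in capitals. They are the 250 bases before the gene start, read along the gene: HERC5 at chr4:88456869-88457118 (plus strand), IFIT3 at chr10:89327747-89327996 (plus) and IFI6 at chr1:27672193-27672442 (minus). A run of capitals longer than 10 bases is a pair of overlapping matches.
HERC5: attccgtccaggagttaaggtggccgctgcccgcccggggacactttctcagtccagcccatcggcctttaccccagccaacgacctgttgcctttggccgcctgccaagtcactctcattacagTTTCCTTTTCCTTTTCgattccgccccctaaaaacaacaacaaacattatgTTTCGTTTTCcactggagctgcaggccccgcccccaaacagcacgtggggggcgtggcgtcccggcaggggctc
IFIT3: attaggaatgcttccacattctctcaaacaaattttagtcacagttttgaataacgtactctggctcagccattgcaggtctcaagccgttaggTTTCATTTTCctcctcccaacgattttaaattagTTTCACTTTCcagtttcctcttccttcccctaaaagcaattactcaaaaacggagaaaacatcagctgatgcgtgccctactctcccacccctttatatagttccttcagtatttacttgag
IFI6: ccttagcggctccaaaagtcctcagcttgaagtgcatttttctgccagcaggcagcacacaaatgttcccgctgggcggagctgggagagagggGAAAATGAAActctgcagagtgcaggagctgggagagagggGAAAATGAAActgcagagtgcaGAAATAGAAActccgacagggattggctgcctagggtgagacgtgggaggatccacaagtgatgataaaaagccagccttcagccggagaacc
Counted from the gene start, the matches began at -125, -119 and -74 in HERC5, at -156 and -122 in IFIT3, and at -156, -115 and -93 in IFI6. Of the 24 interferon genes tested, 18 had a promoter in the table, as did 10590 of the 13401 genes tested. In its window of 250 bases before to 50 after the start, 13 of these 18 held the pattern (72.2%). It was in 403 of the 10590 (3.81%) and in 4.38% of all 27195 genes of the table. Of the 9 interferon genes that were lower by at least 1 log2 unit, 8 had a promoter and 7 held the pattern. So did 6 of the other 10 with a promoter. Among all tested genes with a promoter, the pattern was in 5.81% of those at least 1 log2 unit lower in KM-H2. It was in 5.31% of those higher by as much. A match describes the letters and not binding.

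Surface proteins that meet T cells and macrophages differed in both directions. Of 17 checkpoint ligands and co-stimulators tested, 6 were higher and 7 lower, against 31.7% and 30.7% of all genes tested. Of 21 measured, 4 lay under the floor. CD47, the signal that restrains macrophages, read 8.23 and 8.21 in KM-H2, against 11.59 and 11.73 in L428 (-3.44 ± 0.072, 10.8-fold, adjusted p = 6.64e-14). CD274, a ligand of PDCD1 that is often amplified in cHL, read 4.77 and 4.64 in KM-H2, against 5.81 and 5.98 in L428 (-1.19 ± 0.11, adjusted p = 4.07e-07), so it was under the floor in KM-H2. IDO1, an enzyme that depletes tryptophan, differed by -2.47. The SLAM-family members SLAMF1, at 6.99 and 7.04 in KM-H2, against 4.10 and 3.99 in L428 (2.96 ± 0.11), and CD48, at 7.23 and 7.39 in KM-H2, against 4.48 and 4.45 in L428 (2.85 ± 0.12), were higher in KM-H2, as was CD276 (2.17 ± 0.21), a member of the B7 family. In the TNF family, TNFSF10, the death ligand TRAIL, averaged 6.45 in KM-H2 and 9.55 in L428 (-3.10 ± 0.063), TNF averaged 7.02 in KM-H2 and 8.75 in L428 (-1.73 ± 0.12), and the receptor TNFRSF4 averaged 8.46 in KM-H2 and 6.70 in L428 (1.76 ± 0.094).

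Cell death regulators that passed were mostly lower in KM-H2, among them anti-apoptotic and pro-apoptotic genes. Of 20 tested, 3 were higher in KM-H2 and 11 lower, 6 of them by at least 1 log2 unit, and the median was -0.37, or -0.24 without KM-H2 replicate 2. Anti-apoptotic BCL2L1 read 8.17 and 8.12 in KM-H2, against 10.29 and 10.20 in L428 (-2.10 ± 0.063, adjusted p = 2.00e-12). Pro-apoptotic PMAIP1 read 7.36 and 7.29 in KM-H2, against 9.80 and 9.83 in L428 (-2.49 ± 0.064), BCL2L11 averaged 5.23 in KM-H2 and 6.94 in L428 (-1.72 ± 0.10). BAK1 averaged 7.59 in KM-H2 and 8.82 in L428 (-1.23 ± 0.095). DAPK1, a death-associated kinase, read 4.78 and 5.13 in KM-H2, against 9.62 and 9.53 in L428 (-4.62 ± 0.10), the widest gap of this list, with the lower KM-H2 array under the floor. CFLAR, an inhibitor of caspase activation, differed by -2.21 ± 0.086 on 1 probe set and by 0.032 on its other, dimmer one, so its value depends on the part of the gene read.

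Genes of division and growth were lower more often than higher in KM-H2, by small amounts. Of 20 mitosis genes, 13 were lower and 4 higher, with a median of -0.36. PLK1, a mitotic kinase, averaged 9.12 in KM-H2 and 10.70 in L428 (-1.57 ± 0.066), MKI67, a proliferation marker, 8.92 in KM-H2 and 9.95 in L428 (-1.03 ± 0.066), and CENPF, a kinetochore protein, 9.91 in KM-H2 and 9.04 in L428 (0.87 ± 0.064), so the list held both signs. Of 22 genes of MYC and ribosome biogenesis, 13 were lower and 5 higher, with a median of -0.36, and MYC itself read 9.03 and 9.06 in KM-H2, against 10.07 and 10.11 in L428 (-1.04 ± 0.066, adjusted p = 4.39e-09). MYCN, a relative of MYC, read 7.85 and 7.62 in KM-H2, against 4.34 and 5.53 in L428 (2.80 ± 0.26), with the L428 arrays more than 1 unit apart. S phase genes were balanced, 8 higher and 9 lower of 23. Housekeeping genes had the same sign: 9 of 14 were lower and 1 (B2M) was higher, with a median of -0.25 against 0.02 over all genes, and ACTB averaged 12.99 in KM-H2 and 13.64 in L428. Medians of these lists kept their sign under median centring, quantile normalisation and cyclic loess, where the housekeeping median lay between -0.26 and -0.20. The part of scaling in the division genes beyond these settings was not tested.

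Single regulators of the cell cycle and of p53 held large differences. Of 20 tested G1 cyclins, kinases and inhibitors, 5 were higher and 7 lower, 1 and 3 of them by at least 1 log2 unit. Their median absolute difference was 0.32, against 0.35 over all genes tested. CDKN2A, an inhibitor of G1 kinases, averaged 6.15 in KM-H2 and 7.59 in L428 (-1.44 ± 0.12), and its neighbour on chromosome 9, MTAP, an enzyme of methionine salvage, averaged 4.51 in KM-H2 and 6.84 in L428 (-2.33 ± 0.12). E2F2, an activator of S phase genes, averaged 5.58 in KM-H2 and 7.93 in L428 (-2.35 ± 0.12). All 3 were lower in KM-H2. CDKN2B, which adjoins CDKN2A, did not pass (0.20), nor did CDKN2A-AS1 (-0.11), and both were chosen after their values were seen. DNA copy number was not measured. Of 14 p53 pathway genes tested, 8 were higher and 4 lower, with a median of 0.42. MDM4, an inhibitor of p53, averaged 9.04 in KM-H2 and 7.37 in L428 (1.67 ± 0.088). The p53 targets SESN1 (1.55 ± 0.077) and ZMAT3 (1.30 ± 0.071) were higher as well, while TP53I3, another p53 target, was lower (-1.02 ± 0.097). Known p53 targets outside this list were lower too: PERP and PMAIP1, given above, and CCNG1 (-1.90). The counts and median thus describe the listed members and not p53 targets at large. CCNG1 was chosen after its value was seen.

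Adhesion molecules differed in both directions. Of 30 tested, 15 were higher in KM-H2 and 11 lower, against 31.7% and 30.7% of all genes tested. A difference of at least 1 log2 unit was reached by 10 of the higher and 6 of the lower. Of 33 measured, 3 lay under the floor. ITGA5, the fibronectin receptor chain, read 9.25 and 9.23 in KM-H2, against 5.0 and 5.15 in L428 (4.16 ± 0.091, adjusted p = 9.27e-14). ITGB2, the beta chain of leukocyte integrins, read 9.49 and 9.32 in KM-H2, against 5.33 and 5.58 in L428 (3.95 ± 0.10), and the tetraspanin CD9 read 9.85 and 9.72 in KM-H2, against 5.59 and 5.41 in L428 (4.29 ± 0.12). These 3 and VCAM1 (3.82), the endothelial ligand of integrin alpha-4, were clear of the floor in KM-H2 and within 1 unit of it in L428. ITGA4, that alpha-4 chain, read 7.64 and 7.58 in KM-H2, against 9.73 and 9.83 in L428 (-2.18 ± 0.065). ITGA6, a laminin receptor chain, averaged 4.06 in KM-H2 and 6.73 in L428 (-2.67 ± 0.15), both lower in KM-H2. Among cytoskeletal genes, the tropomyosin TPM2 averaged 9.14 in KM-H2 and 5.28 in L428 (3.87 ± 0.088) and ACTN1, an actin cross-linker, 10.50 in KM-H2 and 8.70 in L428 (1.80 ± 0.071), both higher in KM-H2. The median of the adhesion list was 0.22, or 0.04 with no floor.

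Receptor tyrosine kinases also differed in both directions. MET, the receptor of HGF, read 7.11 and 7.07 in KM-H2, against 11.57 and 11.59 in L428 (-4.49 ± 0.055, adjusted p = 4.48e-16), while HGF, its ligand, read 7.98 and 8.10 in KM-H2, against 4.36 and 4.11 in L428 (3.80 ± 0.13, adjusted p = 7.46e-12). The receptor was lower in KM-H2, and the ligand was above the floor in KM-H2 only. EPHB1, an ephrin receptor, averaged 5.89 in KM-H2 and 10.08 in L428 (-4.19 ± 0.10), and MST1R, a relative of MET, 5.45 in KM-H2 and 7.97 in L428 (-2.52 ± 0.15), both lower in KM-H2. TYRO3 averaged 8.57 in KM-H2 and 6.35 in L428 (2.23 ± 0.12) and DDR2, a collagen receptor, 9.59 in KM-H2 and 7.98 in L428 (1.61 ± 0.080), both higher. Of 14 tested, 5 were higher and 5 lower, against 31.7% and 30.7% of all genes tested. Of 24 measured, 10 lay under the floor. Among growth factors, FGF2 read 9.77 and 9.93 in KM-H2, against 6.05 and 6.75 in L428 (3.45 ± 0.18), and interleukins IL6 (-2.16) and IL13 (-2.36) were lower and under the floor in KM-H2.

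Of 18 Notch pathway genes tested, 8 were higher in KM-H2, 3 were lower and 7 did not pass. Over all genes tested, 31.7% were higher and 30.7% lower. The ligands went opposite ways: JAG2 averaged 8.68 in KM-H2 and 6.85 in L428 (1.83 ± 0.090). JAG1 averaged 5.09 in KM-H2 and 6.72 in L428 (-1.64 ± 0.12). The target genes HES1 (1.60 ± 0.16) and HEY1 (1.43 ± 0.080) were higher, and NOTCH1, the receptor, differed by 0.87 ± 0.10. LEF1, a transcription factor of the Wnt pathway, read 10.95 and 11.08 in KM-H2, against 7.86 and 7.76 in L428 (3.20 ± 0.096, adjusted p = 1.96e-12), while the Wnt receptor FZD6 was under the floor in KM-H2. Other regulators of lineage with wide gaps were RUNX2 (-3.01), MSC, a repressor of B cell factors (-2.25), MAF (2.89), RORA (2.38), TCF12 (2.11) and ID3 (1.94).

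Cancer-testis antigens, which are normally made in germ cells, were mostly higher in KM-H2 where they passed. Of 20 measured, 8 lay under the floor in both lines and 12 were tested: 8 were higher and 1 lower, with a median of 1.07. MAGEA4 read 11.15 and 11.23 in KM-H2, against 5.02 and 5.08 in L428 (6.14 ± 0.071, adjusted p = 3.56e-16), SSX1 read 10.76 and 10.83 in KM-H2, against 4.37 and 4.40 in L428 (6.41 ± 0.16). MAGEA1 read 8.99 and 9.16 in KM-H2, against 5.23 and 5.03 in L428 (3.94 ± 0.12). In L428 these 3 lay under or within 1 unit of the floor. MAGEC1 (2.95) and MAGEA10 (2.68) were higher too, and MAGEB2 was bright in both lines at 10.49 and 10.44 in KM-H2, against 9.23 and 9.12 in L428 (1.29 ± 0.060). FAM9C on the same chromosome went the other way, at 3.88 and 3.58 in KM-H2, against 10.14 and 10.16 in L428. MAGEA and SSX genes are near-identical families, and their probe sets may read relatives. With no floor the median over the 20 was 0.15, and with a floor of 6 it was 2.82.

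Metabolic genes differed at single steps. PHGDH read 5.16 and 5.28 in KM-H2, against 10.83 and 10.70 in L428 (-5.55 ± 0.12, adjusted p = 9.27e-14), so this entry enzyme of serine synthesis was within 1 unit of the floor in KM-H2. The cystine transporter SLC7A11 read 4.56 and 4.84 in KM-H2, against 8.77 and 8.76 in L428 (-4.06 ± 0.12), the leucine transporter SLC7A5 averaged 9.23 in KM-H2 and 11.96 in L428 (-2.73 ± 0.056), and their shared partner SLC3A2 differed by -1.39 ± 0.051. All of these were lower in KM-H2, whereas SLC38A5, a glutamine transporter, read 9.49 and 9.39 in KM-H2, against 4.56 and 4.38 in L428 (4.97 ± 0.094). Over 15 tested amino acid transporters, 6 were higher and 8 lower. In glycolysis, 5 of 20 were higher and 9 lower, with PFKM (3.64) and ALDOC (2.94) higher and ENO3 (-2.81) lower. TXNIP, which restrains glucose uptake, read 4.29 and 4.47 in KM-H2, against 9.53 and 9.66 in L428 (-5.22 ± 0.14). NQO1, a quinone reductase of the redox response, read 8.79 and 8.80 in KM-H2, against 5.57 and 5.76 in L428 (3.13 ± 0.098). The fatty acid desaturase genes FADS1 (2.99), FADS2 (1.68) and FADS3 (1.15), which adjoin each other on chromosome 11, were higher.

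**Figure D4:**
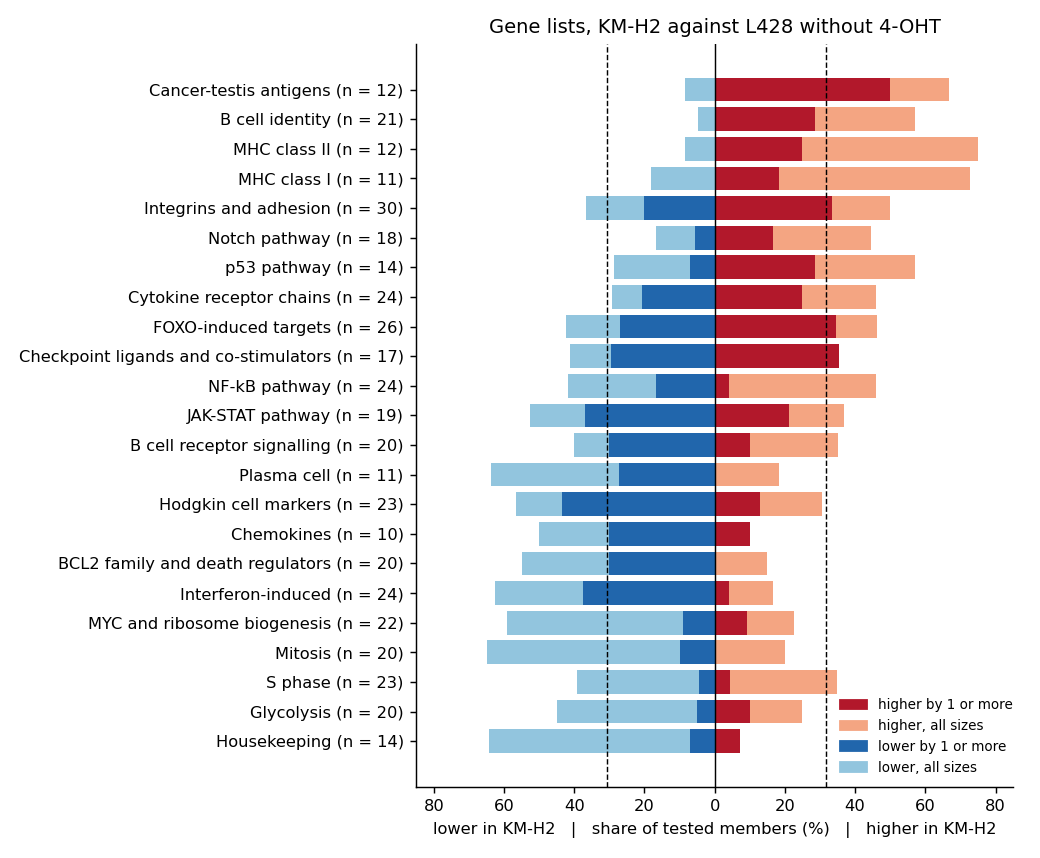
Share of the tested members of 23 gene lists that passed, to the right for genes higher in KM-H2 and to the left for genes lower in KM-H2, with dark parts for differences of at least 1 log2 unit. Dashed lines mark the shares over all genes tested, 31.7% higher and 30.7% lower. Cancer-testis, B cell, p53 pathway and MHC lists reach furthest to the right of the dashed line, and plasma cell, interferon, mitosis and housekeeping lists furthest to the left.

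Transcripts of the switch and its known targets were measured before induction. FOXO1 read 9.17 and 9.21 in KM-H2, against 9.37 and 9.58 in L428 (-0.29 ± 0.079, adjusted p = 0.00546), and this call ended without L428 replicate 2 (adjusted p = 0.097). ESR1 lay under the floor in every vehicle array, at 4.72 and 4.59 in KM-H2, against 4.67 and 4.75 in L428, and whether either probe set reads the fusion transcript was not determined. Of 26 tested genes that FOXO factors are known to induce, 12 were higher in KM-H2 and 11 lower, 9 and 7 of them by at least 1 log2 unit, with a median of 0.05 that was -0.04 with a floor of 6. DEPP1 read 8.74 and 8.62 in KM-H2, against 5.58 and 5.77 in L428 (3.01 ± 0.086), while CITED2 averaged 7.18 in KM-H2 and 9.24 in L428 (-2.06 ± 0.090), and TXNIP, TNFSF10 and PMAIP1 of the same list were lower as given above. CAT, the catalase gene, differed by 1.23 ± 0.078.

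Runs of neighbours with one sign were found outside the imprinted clusters as well. The 11 longest, of 5 to 8 genes, held 65 genes, and 3 of them lay on chromosome 6 or 9 with 6 or 7 genes each, all lower in KM-H2. On chromosome 6 one run went from HINT3 to PTPRK, with THEMIS (-5.63) and the phosphatase gene PTPRK (-3.15) the widest, and another from ADAT2 to STX11, with FUCA2 (-2.44), a fucosidase gene, the widest. On chromosome 9 the run from CEMIP2 to RORB held ANXA1, an annexin, at 4.14 and 4.12 in KM-H2, against 7.49 and 7.47 in L428 (-3.35 ± 0.081). Of 6 runs of 5 genes, 3 were lower: on chromosome 1 from DCLRE1B to DENND2C, with the kinase gene HIPK1 at -2.59, and on chromosome 8 from AZIN1 to SLC25A32, with FZD6, and from DNAJC5B to VCPIP1, with MYBL1. The other 3 were higher: on chromosome 4 from TBCK to LEF1, on chromosome 11 from TMEM258 to FADS3 and on chromosome 12 from ARL1 to DRAM1, with SPIC. Neighbours in such a run are not independent genes of a pathway. Shorter runs were common, with 20 of 4 genes, 64 of 3 and 274 of 2, beside 1505 single genes.

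Some chromosomes held more genes of one sign than the genome as a whole. On chromosome 6, 21.4% of 667 tested genes were at least 1 log2 unit lower in KM-H2 and 4.65% higher, against 8.82% and 9.04% over all genes, and 72.1% lay lower at any size. Chromosome 8 had 21.0% lower and 6.94% higher among 461 genes. Chromosome 7 had 14.9% lower and 8.21% higher among 585. The medians of chromosomes 6 and 8 were -0.34 and -0.36, against 0.02 over all genes. Chromosomes 11, 12, 4, 13, 10 and 1 were among those with more higher than lower genes. Higher and lower shares were 11.5% and 3.14% on chromosome 11, 14.3% and 7.81% on chromosome 12, and 13.6% and 8.43% on chromosome 4. They were 12.3% and 4.55% on chromosome 13, 12.8% and 5.59% on chromosome 10, and 11.4% and 5.69% on chromosome 1. The median of chromosome 4 was 0.23. These shares are descriptions with no test, and copy number was not measured.

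**Figure D5:**
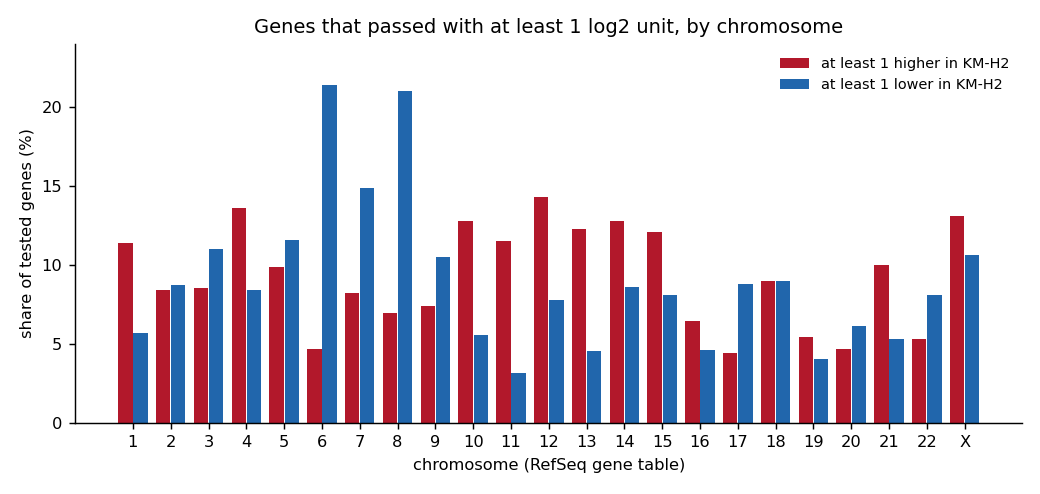
Share of the tested genes of each chromosome that passed with at least 1 log2 unit, higher in KM-H2 (red, left bars) or lower in KM-H2 (blue, right bars). Chromosomes 6, 7 and 8 have the tallest blue bars, at 21.4%, 14.9% and 21.0%, and chromosomes 12 and 4 the tallest red bars, at 14.3% and 13.6%.

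Most of the differences were also seen in the 4 arrays of the same lines with 4-OHT. The comparison above used these only for the spread and for choosing each gene's brightest probe set. Of the 2393 genes with at least 1 log2 unit, 2371 had the same sign with 4-OHT and 2329 also passed there in that direction. With 4-OHT, 62.1% of all genes passed in either direction, so the share is high for any gene. TNFAIP3 differed by -5.92 with 4-OHT, CCR4 by -6.45, B2M by 2.03, MAGEA4 by 6.68 and SNORD113-4 by 4.39. A limma test of whether the line difference itself changed with 4-OHT passed for 3660 of 13401 genes (27.3%). It passed for DLK1, which differed by 1.81 with 4-OHT and 4.02 with vehicle (adjusted p = 5.34e-07), and for CR2, which differed by 4.11 with 4-OHT and 6.05 with vehicle (adjusted p = 1.35e-07).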

How the data were processed

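RNA of 20 samples was hybridised to Human Gene 1.0 ST arrays, of which the 4 vehicle arrays of KM-H2 and L428 were compared. The authors deposited log2 values, computed from scanned images by robust multichip average (RMA) in Affymetrix Expression Console, per the series' design text and the submitters' processing notes. The sorted values of the KM-H2 and L428 arrays differed by at most 0.253, against 0.712 or more from the other lines, and only these 8 arrays were fitted. From 33268 probe sets, 19457 had 1 gene symbol, 1751 had several and 12060 had none. Symbols were checked against RefSeq (GRCh38.p14), where 19426 matched. Left out were 24 probe sets of genes placed on chromosome Y only or of X inactivation, and other genes of chromosome X were kept. There remained 18393 genes, each with its brightest probe set. Genes reaching 5 log2 units in at least 2 of the 4 vehicle arrays (13401) were tested with limma 3.58.1 in R 4.3.3: 4 group means, empirical Bayes with an intensity trend, and Benjamini-Hochberg adjustment. The 4-OHT arrays served to estimate the spread and, together with the vehicle arrays, to choose the brightest probe set. The procedure was tested on simulated data. With 2 arrays per line, an exact permutation test cannot go below a two-sided p of 0.333, and precision is set by how few arrays there are. The vehicle arrays had medians of 5.67 to 5.69.

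Genes were named by a rule: a fixed set of genes, the 15 largest differences in each direction without overlap between arrays, up to 6 members of each of 49 lists with the largest differences (or the brightest, where few passed), and members of the longest runs of neighbours. Of the 351 genes so named, 349 were tested, and names outside the rule are marked. The members and lists were chosen with earlier results of these data known. Alternatives changed the samples fitted, floor, scaling, moderation, choice of probe set, replicates and pairing.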

Additional observations from a re-analysis of the deposited data

Results flagged for a closer look

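The line difference changed sign between conditions at 10 genes that differed by at least 1 log2 unit with vehicle and passed in the opposite direction with 4-OHT. By that choice the change, vehicle difference minus 4-OHT difference, was bound to exceed 1 log2 unit in each. All of them passed limma's interaction test with Benjamini-Hochberg adjustment over 13401 genes, which is therefore no further support. That test passed for 27.3% of all genes. CXCR4, the receptor of CXCL12, differed by -0.38 with 4-OHT and 1.12 with vehicle, a change of 1.50 log2 units. The changes of the other genes that were higher in KM-H2 with vehicle were 2.72 at HTR2B, 1.85 at FZD7, 1.72 at SESTD1, 1.39 at GIT2 and 1.37 at NREP. Those of the genes that were lower in KM-H2 with vehicle were -3.53 at EXOC6B, -2.95 at SLC25A32, -2.42 at GLCCI1 and -2.38 at ZFP36L2. SLC25A32, a mitochondrial folate carrier, differed by 1.38 with 4-OHT and -1.57 with vehicle, so the run of lower neighbours on chromosome 8 does not reach this gene with 4-OHT. These genes were selected for this pattern after their values were seen, apart from SLC25A32, which the run named.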

How the results depend on the processing

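Under all settings tried, the counts of genes that passed stayed within 1.5 times their value, and no named gene changed sign. Leaving out 1 vehicle array at a time gave 3822 to 3963 genes higher and 3752 to 3844 lower in KM-H2, and 1208 to 1219 higher and 1169 to 1197 lower by at least 1 log2 unit. The lone array of a line was then assumed to vary like the other groups. The other settings gave 3848 to 4396 higher, 3826 to 4356 lower, 1086 to 1233 higher by at least 1 log2 unit and 1102 to 1210 lower by as much, with the lowest counts at a floor of 6. With the replicate number as a block, 4225 genes were higher and 4098 lower, 1211 and 1182 of them by at least 1 log2 unit, and all 349 named genes kept their call. The numbers did not pair the samples: deviations of same-numbered arrays of the vehicle groups correlated at -0.047, and those of the other pairs of groups at -0.093 to 0.048. Calls lost under at least 1 setting were those of KRT18, IRF4, SOCS1, CD7, CD70, GP9, KRT8, PRF1, TNFSF9, GUSB and FOXO1, and the cause was not tested. A floor of 6 left 25 named genes untested, since it removes genes of low signal. Medians of some lists moved with the floor or with an array left out. Precision is limited by 2 arrays per line and by low signals near the floor.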

Other observations

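Further gene groups differed between KM-H2 and L428 at single members. Over all genes tested, 31.7% were higher and 30.7% lower, and the counts here are to be read against these shares. Of 12 tested innate sensors, 4 were higher and 5 lower in KM-H2: TLR7, a receptor of single-stranded RNA, averaged 6.99 in KM-H2 and 4.18 in L428 (2.81 ± 0.16), and AIM2, a sensor of cytosolic DNA, averaged 4.37 in KM-H2 and 7.66 in L428 (-3.29 ± 0.12). Of 9 tested Fc receptor-like and complement receptor genes, 6 were higher and 2 lower, with a median of 0.91 that was 0.12 with no floor, and FCGR2B, the inhibitory IgG receptor, averaged 7.53 in KM-H2 and 4.67 in L428 (2.86 ± 0.23). The 2 tested GIMAP genes, GTPases of lymphocytes of one cluster on chromosome 7, had opposite signs, GIMAP2 at 2.60 ± 0.13 and GIMAP8 at -3.70 ± 0.12. LGALS2, a galectin, averaged 8.80 in KM-H2 and 4.81 in L428 (3.99 ± 0.10).

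Of 14 tested chromatin genes of the Polycomb and DNA methylation list, 7 were higher and 5 lower. The shares over all genes tested, 31.7% higher and 30.7% lower, apply to each count of this paragraph. KDM2B, a histone demethylase of a Polycomb complex, averaged 9.19 in KM-H2 and 6.29 in L428 (2.90 ± 0.11), the 1 difference of that list of at least 1 log2 unit. Of 21 tested homeobox genes, 7 were higher and 6 lower, close to these shares. HOXB7 (-1.65), HOXC5 (-1.38), HOXD8 (-1.22) and HOXD9 (-1.16), members of 3 clusters, were lower in KM-H2 by at least 1 log2 unit. SATB1, a chromatin organiser with a homeobox domain, was the 1 member higher by as much (1.88). Of 13 tested KLF and EGR factors, 5 were higher and 5 lower, among them KLF11 (1.51) and KLF6 (-1.18). Of 17 tested RGS and G protein regulators, 7 were higher and 7 lower, with GNA15 at 2.32 ± 0.25 and RGS1 at -1.77 ± 0.067. Of 17 cholesterol synthesis genes, 8 were higher and 5 lower, and CYP51A1 stood apart from most at -1.61 ± 0.064.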
